A study of Mus musculus with 106 samples.

Results

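The comparison described here is that of mouse quadriceps, the large muscle group at the front of the thigh, at 34 °C and at 22 °C. Its members are 6 of the 106 libraries of the series, 3 at each temperature, taken by the column names of the count table, and 11752 of the 23393 genes in that table, those with an average log2 CPM above 0. The mice were wild type C57BL/6J males, 8 weeks old at the start. The 34 °C group was kept for 4 weeks at 34 °C, the control group was kept at room temperature (22 °C), and both were 12 weeks old when quadriceps was collected. The mice of this experiment came from Charles River, and those of the 10 °C experiment, used below for reference, from Janvier. The cold group of that experiment was kept for 2 weeks at 10 °C, after a stepwise acclimatization at temperatures between 22 °C and 10 °C. Each library pools the RNA of 2 mice, so a value stands for a pair of animals, and the p-values measure the spread between such pools. Muscle as dissected can hold fat, and the adipocyte markers given below show how much of it each library carried.

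At room temperature a mouse spends energy on heat, and in a warm room it needs little of it. Brown adipocytes burn fatty acids through the uncoupling protein Ucp1, and their enzymes of de novo fatty acid synthesis are known to be induced when they are used. Synthesis starts with citrate, which Slc25a1 carries out of the mitochondrion and Acly splits to acetyl-CoA. Acaca makes malonyl-CoA, Fasn assembles palmitate, Elovl6 elongates it and Scd1 adds a double bond. Skeletal muscle fibres burn fatty acids, among other fuels.

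The libraries held 40427068 to 54215578 counts at 22 °C and 41263299 to 46465557 at 34 °C. The label held: the muscle markers summed to between 151034 and 204434 CPM (read counts relative to library size, scaled by TMM) in all 6 libraries. The 4 skin keratin genes summed to between 0.759 and 2.23 CPM, and Krt5 and Krt14 among them were under 0.1 CPM throughout. The libraries differed in the fat they carried. The 11 adipocyte markers summed to 549.5, 326.9 and 231.7 CPM in 22 °C libraries 1, 2 and 3 and to 285.9, 141.6 and 332.8 CPM in 34 °C libraries 1, 2 and 3, which is 4.66%, 2.77%, 1.97%, 2.43%, 1.20% and 2.82% of the level in brown fat at 22 °C. The groups overlap, with a mean of 369.4 ± 163.1 CPM at 22 °C and 253.4 ± 99.6 CPM at 34 °C (SD, n = 3 each). The log2 ratio of the means was -0.54, with a p of 0.5 by the exact two-sided permutation test, in which 3 against 3 libraries cannot go below 0.1. Without 22 °C library 1 the ratio was -0.14. A second difference lies in 22 °C library 3, where the ribosomal RNA precursor Rn45s reached 3146 CPM against 538.5 to 829.3 CPM in the other 5 libraries. The brown adipocyte markers summed to 24.2, 2.23 and 6.59 CPM at 22 °C and to 1.48, 1.59 and 1.62 CPM at 34 °C. Sums of fibroblast, endothelial, macrophage, red blood cell, Schwann cell, tendon and skin markers overlapped, with log2 ratios from -0.72 for red blood cells to 0.49 for Schwann cells and exact permutation p-values of 0.3 or more.

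Calls required a fold change above 1.5 and a p, before adjustment, no higher than 0.05 in edgeR's quasi-likelihood test. By this rule 142 of 11752 genes (1.21%) changed, 108 lower at 34 °C (0.919%) and 34 higher (0.289%). No gene had a Benjamini-Hochberg adjusted p under 0.05 in this test, the smallest being 0.72, although 486 genes (4.14%) had an unadjusted p no higher than 0.05. At the same adjusted threshold edgeR's exact test and the Wald test of DESeq2 gave 18 genes each. The values of the 2 groups did not overlap for 110 of the 142 called genes, of which 81 were lower and 29 higher, against 9.34% of all genes tested, 4.37% lower and 4.97% higher. Each call below is at the unadjusted threshold, with an adjusted p of 0.72 or more, and the SE of its log2 fold change is given in its place.

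To separate the genes of fat from those of muscle, each gene was placed by its mean CPM in libraries outside the comparison, brown fat at 22 °C and the 3 quadriceps libraries of the 22 °C controls of the 10 °C experiment. A gene at least 10 times higher in brown fat was counted as fat-enriched, one at least 10 times higher in quadriceps as muscle-enriched, and the rest as present in both. The fat-enriched class held the highest share of called genes. Of 435 fat-enriched genes tested, 50 fell at 34 °C and 3, Cyp4b1, Ppp1r3d and 8430408G22Rik, rose (12.2% called). Of 10653 genes in both, 53 fell and 16 rose (0.648%), and of 664 muscle-enriched genes 5 fell and 15 rose (3.01%). The median log2 fold change was -0.17 in the fat-enriched class, 0.00 in the genes in both and 0.06 in the muscle-enriched class. The fat-enriched class does not hold only genes silent in muscle: its most counted members besides Scd1 were Gpd1 and Acadvl, metabolic enzymes at 786.6 to 965.4 and 335.7 to 431.3 CPM, with log2 fold changes of 0.02 and -0.17 and no call. In bulk samples, fewer adipocytes and less RNA per adipocyte cannot be told apart. The summed adipocyte markers moved with the class, and without 22 °C library 1, the library with the most of them, 27 fat-enriched genes were called lower and 7 higher. The part of the amount of fat in these calls was not tested beyond the values given here.

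**Figure D1:**
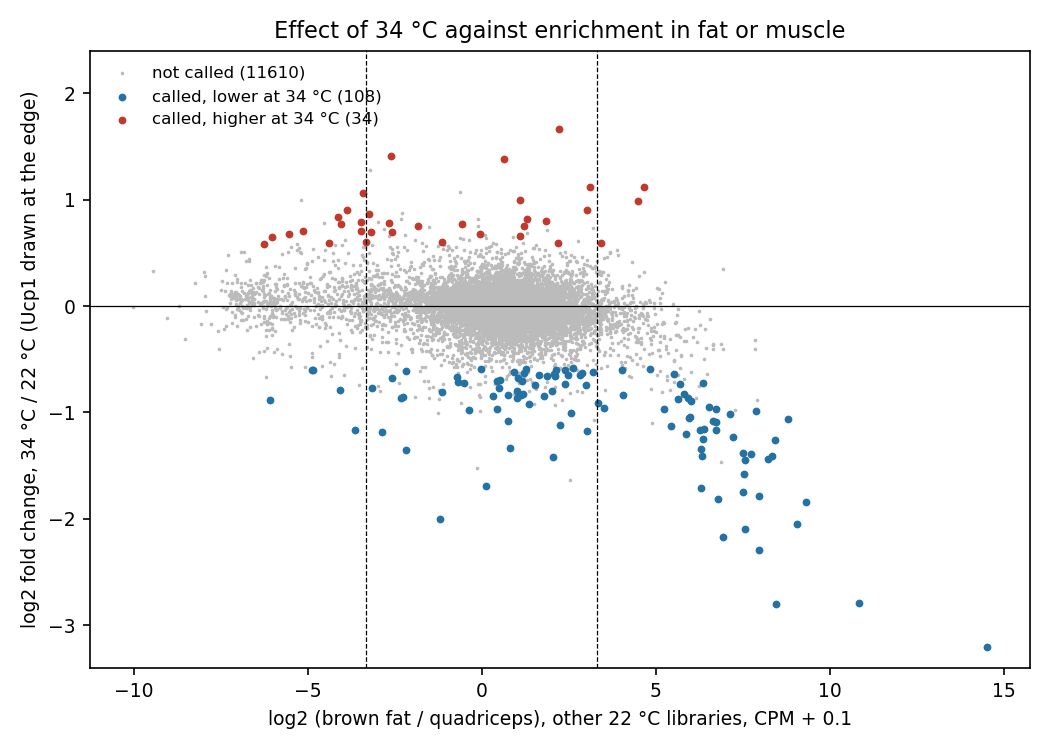
Log2 fold change at 34 °C (y axis) of the 11752 genes tested against the log2 ratio of brown fat to quadriceps in other 22 °C libraries (x axis), with dashed lines at 10 times. Blue points are the 108 genes called lower and red points the 34 called higher, and the decreases of Scd1 (-2.80), Cidea (-2.79) and Fasn (-2.30) lie at the right among fat-enriched genes, with Ucp1 drawn at the lower edge.

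The enzymes of fatty acid synthesis fell together. Of the 23 genes of this list, all tested, 10 fell and none rose, against 0.919% lower among all genes tested, with a median log2 fold change of -0.45 over the list against -0.00 over all genes. Scd1 (chr19:44394455-44407879, minus strand, GRCm38) was at 1236, 759.9 and 549.6 CPM in the 22 °C libraries and at 64.6, 35.9 and 264.8 CPM in the 34 °C libraries. Every 34 °C library lay under every 22 °C library, and the log2 fold change was -2.80 ± 0.70 (SE; adjusted p = 0.985 in edgeR's quasi-likelihood test). Fasn (chr11:120805846-120824547, minus strand) was at 402.8, 289.4 and 227.8 CPM at 22 °C and at 29.2, 25.7 and 132.3 CPM at 34 °C, a log2 fold change of -2.30 ± 0.60. In both genes 34 °C library 3 was the highest of its group. Elovl6 (chr3:129532355-129638495, plus strand) went from 10.3, 9.58 and 7.34 CPM to 1.09, 0.931 and 4.55 CPM, again with the highest warm value in library 3 (log2 fold change -2.05 ± 0.53).

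The earlier steps of the pathway also fell. Acly (chr11:100476353-100528000, minus strand) was at 56.3, 52.7 and 36.3 CPM at 22 °C and at 20.3, 17.98 and 26.7 CPM at 34 °C (log2 fold change -1.16 ± 0.20). Acaca was at 71.4, 56.4 and 51.1 CPM and at 22.5, 20.6 and 40.9 CPM (-1.09 ± 0.26). The citrate carrier Slc25a1 was at 31.9, 26.7 and 13.8 CPM and at 9.34, 4.48 and 13.5 CPM, so that its groups nearly touch (-1.40 ± 0.41). The pentose phosphate enzymes supply the NADPH of synthesis, and here Tkt (-1.39) and G6pdx (-0.73) fell, the second with overlapping groups. Pnpla3, a lipid droplet protein, went from 8.75, 7.55 and 5.75 CPM to 2.83, 3.18 and 3.56 CPM (-1.21 ± 0.19), with the warm libraries close together. Thrsp, a small nuclear protein of lipogenic tissues, had a log2 fold change of -1.01 ± 0.34, but its highest warm library, at 34.7 CPM, was above its lowest control at 32.5 CPM, and the call was lost without 22 °C library 1 and without 34 °C library 1.

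The transcription factors that drive this pathway were not called. Srebf1, which encodes SREBP1, had a log2 fold change of 0.06 ± 0.13 and Mlxipl, which encodes ChREBP, of -0.19 ± 0.09. The muscle form of acetyl-CoA carboxylase, Acacb, was at 494.1 to 578.9 CPM at 22 °C and 501.4 to 620.7 CPM at 34 °C, with a log2 fold change of 0.06. Malic enzyme, Me1, was at 0.09 ± 0.13. Those 4 genes were less than 10 times higher in brown fat than in quadriceps, whereas all 10 called members of the list were fat-enriched.

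**Figure D2:**
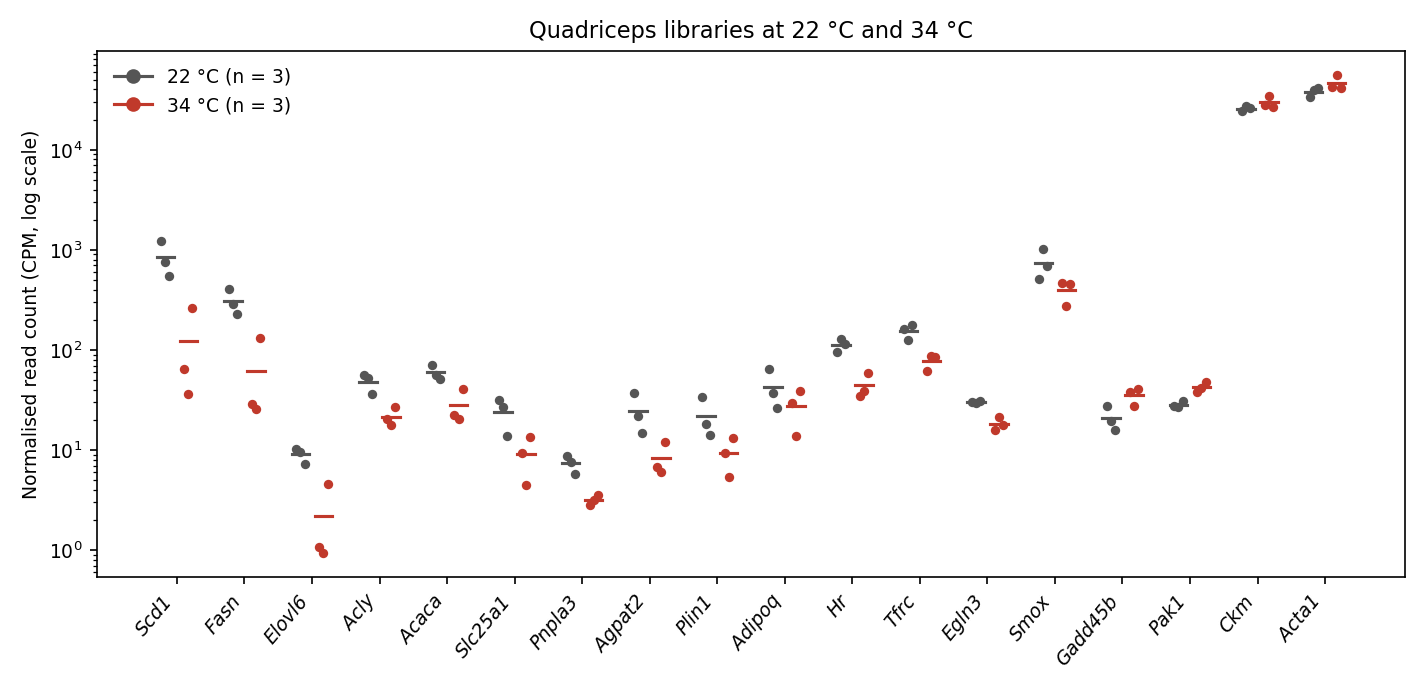
Normalised read counts (CPM, log axis) in each of the 3 libraries at 22 °C (grey) and at 34 °C (red) for 18 genes, with bars at the group means. The lipogenic genes from Scd1 to Agpat2 and Hr, Tfrc, Egln3 and Smox are lower in all 34 °C libraries, Gadd45b and Pak1 are higher in all of them, and Adipoq, Ckm and Acta1 overlap.

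Markers of fat cell identity were called in part. Among 27 markers shared by white and brown adipocytes, all tested, 8 fell and none rose, with a median of -0.58, against 0.919% of all genes tested that fell. Adipoq, the hormone adiponectin, was at 65.0, 37.0 and 26.2 CPM at 22 °C and at 29.3, 13.7 and 39.0 CPM at 34 °C, overlapping groups with a log2 fold change of -0.65 ± 0.41. Fabp4, the fatty acid binding protein of adipocytes, was at 400.3, 256.6 and 183.1 CPM and at 200.2, 109.8 and 236.3 CPM (-0.62 ± 0.33). Cidec, Retn and Cfd also overlapped, at -0.69, -0.80 and -0.21. Members called lower included proteins of fat storage. Plin1, which coats the lipid droplet, went from 33.9, 18.2 and 14.1 CPM to 9.38, 5.34 and 13.1 CPM (-1.25 ± 0.38). Agpat2, which makes phosphatidic acid for triglyceride, was at 14.8 to 37.2 CPM at 22 °C and at 6.79, 6.00 and 12.0 CPM at 34 °C (-1.58 ± 0.36). The amino acid transporter Slc36a2 (-1.75) and the melanocortin receptor accessory protein Mrap (-1.71) fell with no overlap, and Pck1, Orm1, Tusc5 and Cebpa were called with overlapping groups.

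Brown adipocyte genes rested on few counts. Of 12 such markers 6 passed the filter on low values. Ucp1 and Kcnk3 passed it through the 22 °C libraries, mainly library 1, so their calls are given as values and the number of called markers is not used. Ucp1 had 389, 4 and 47 reads in the 22 °C libraries and 0 reads in each 34 °C library. With the 34 °C libraries placed at the limit that a count of 0 allows, 3 counts per library or 0.071 CPM on average, the 22 °C mean of 2.76 CPM was at least 38.9-fold higher, and at least 8.97-fold higher without 22 °C library 1. These bounds are on means only: 22 °C library 2, at 0.073 CPM, was level with the limit, and the second bound rests on library 3. Cidea, a droplet protein most abundant in brown fat, was at 15.5, 1.59 and 4.47 CPM at 22 °C and at 1.09, 0.857 and 1.17 CPM at 34 °C (log2 fold change -2.79 ± 0.74), with its highest value in the same library 1. The potassium channel Kcnk3 was at 3.87, 0.95 and 1.28 CPM against 0.348, 0.539 and 0.821 CPM.

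Because the amount of fat varied from library to library, each gene was also divided by the summed adipocyte markers of its own library, which do not include Scd1, Fasn or the other synthesis genes. The ratio of Scd1 to the sum was 2.25, 2.32 and 2.37 in the 22 °C libraries, where the sums themselves spread from 231.7 to 549.5 CPM, and 0.226, 0.254 and 0.796 in the 34 °C libraries. The groups are apart, with a log2 ratio of means of -2.45, and a p of 0.1 in the exact permutation test, its lowest possible value. The ratio of Fasn went from 0.733, 0.885 and 0.983 to 0.102, 0.181 and 0.397. Elovl6, Slc25a1, Tkt and Agpat2 were also apart between the groups, with log2 ratios of -1.73, -0.92, -0.89 and -0.96. These genes, like Scd1 and Fasn, had been called lower in the same libraries, which favours groups that are apart. The share of all genes apart on this scale was not computed. Acly and Acaca, at -0.60 and -0.59, overlapped on this scale (p of 0.2 each in the exact permutation test), as did Thrsp at -0.53 and Pnpla3 at -0.57. Fabp4, which is not part of the sum, had a ratio of 0.728 to 0.790 at 22 °C and 0.700 to 0.775 at 34 °C.

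The markers in the sum did not keep 1 proportion. Cfd, the secreted protease adipsin, made up a share of 0.435 to 0.486 of the sum at 22 °C and 0.489 to 0.645 at 34 °C, apart and higher, while the share of Plin1 was apart and lower (log2 ratio -0.69). Without Cfd, an alternative chosen after seeing the data, the sum was 306.7, 168.0 and 130.9 CPM at 22 °C and 101.6, 52.99 and 170.2 CPM at 34 °C, overlapping groups with a log2 ratio of -0.90 (exact permutation p of 0.3). Relative to that sum Scd1, Fasn, Elovl6, Slc25a1 and Tkt were still apart, at -2.15, -1.62, -1.41, -0.52 and -0.47. Agpat2 then overlapped at -0.54, Acly and Acaca were at -0.15 and -0.17 with overlap, and Fabp4 overlapped at 0.36. The size of the ratios thus depends on the markers taken. Acly was at -0.60 with the full sum and at -0.15 without Cfd, and Acaca at -0.59 and -0.17. With the log2 of the full sum as a covariate in the edgeR fit, the log2 fold change was -2.27 for Scd1, -1.87 for Fasn and -0.93 for Acly, all 3 called, and -0.06 for Adipoq, not called.

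**Figure D3:**
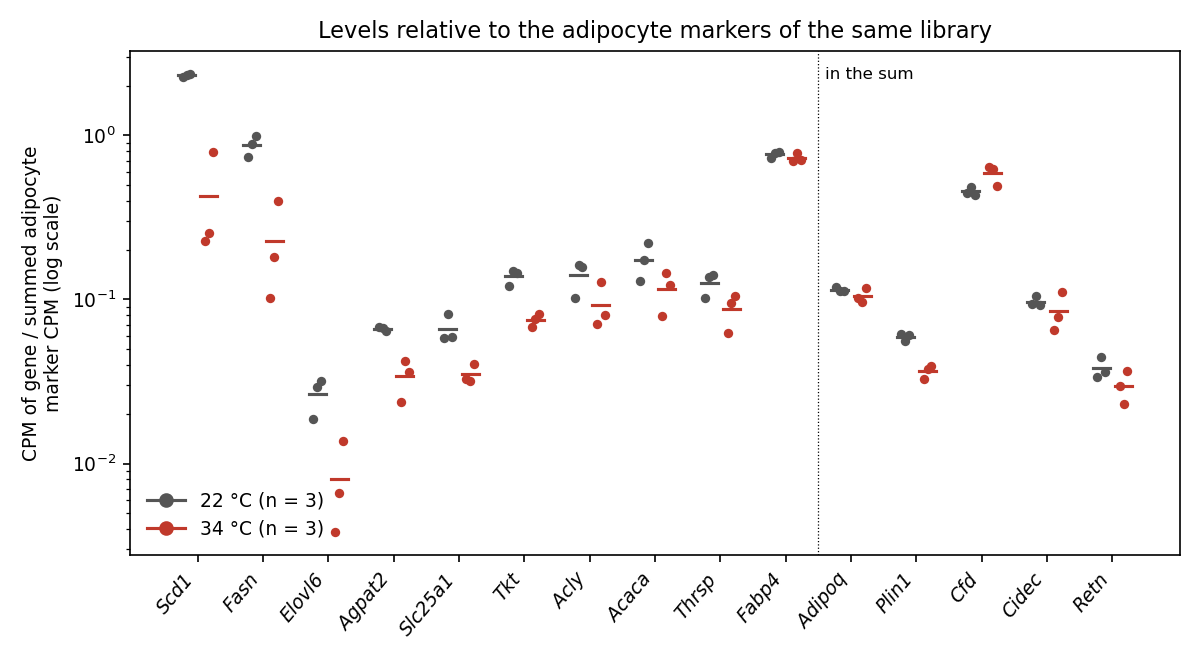
CPM of each gene divided by the summed CPM of 11 adipocyte markers in the same library (log axis), at 22 °C (grey) and 34 °C (red), with bars at the group means. Scd1, Fasn, Elovl6, Agpat2, Slc25a1 and Tkt are apart between the temperatures, as are Plin1 (lower) and Cfd (higher) within the sum, Fabp4 overlaps, and the 5 genes right of the dotted line are part of the sum.

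The level at 22 °C itself was not the same in both sets of controls. For the 22 °C quadriceps of the 10 °C experiment the vendor was different. The study's methods can be read to give it another library kit, but they name the same sequencing site for both quadriceps sets. The kit is therefore not settled. In the 22 °C quadriceps of the 10 °C experiment Scd1 was at 233.0, 255.3 and 134.6 CPM, and its ratio to the adipocyte sum was 0.725, 0.764 and 0.766. These 3 ratios lie under all 3 of the controls of the 34 °C experiment and within the range of its warm libraries. With all 6 of the 22 °C libraries as controls the log2 fold change at 34 °C was -2.12 for Scd1 and -1.83 for Fasn, both still called, while Elovl6, at -1.39, was not. The number of fat-enriched genes called was then 30, 26 of them lower.

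Some genes of both tissues fell with little spread. Hr, the thyroid hormone-responsive corepressor called hairless (chr14:70552212-70573548, plus strand), was 4.58 times more abundant in quadriceps than in brown fat and was at 94.5, 128.8 and 116.0 CPM at 22 °C and at 34.8, 38.9 and 59.2 CPM at 34 °C. Its log2 fold change was -1.35 ± 0.21 (adjusted p = 0.72 in edgeR's quasi-likelihood test), and with the adipocyte covariate it was -1.33. Tfrc, the transferrin receptor that takes up iron, went from 161.8, 125.1 and 177.1 CPM to 61.7, 87.8 and 86.0 CPM (-0.98 ± 0.18). Egln3, a prolyl hydroxylase of the hypoxia-inducible factors, was at 30.1, 29.2 and 30.95 CPM and fell to 15.8, 21.2 and 17.6 CPM (-0.72 ± 0.12). Hr, Tfrc and Egln3 were called in each of the 6 fits that left out a library. Klhdc7a, a kelch-domain protein counted as fat-enriched, had the smallest p of all genes, with 3.89, 3.69 and 2.48 CPM at 22 °C and 0.973, 0.955 and 0.938 CPM at 34 °C (-1.81 ± 0.26). Its 34 °C values lie at the limit of the filter on low values, which favours a decrease.

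The 5 muscle-enriched genes that fell were Smox, Neto2, Foxo6, Htra4 and Col24a1. None of the 5 had overlapping groups, which held for 81 of all 108 genes called lower, since a call favours it. Smox, spermine oxidase of polyamine breakdown and the most counted of them, was at 513.7, 1012 and 693.7 CPM at 22 °C and at 470.0, 274.9 and 461.0 CPM at 34 °C (-0.88 ± 0.28), not called without 22 °C library 2. Neto2, an auxiliary subunit of kainate receptors, was at 3.03, 5.90 and 5.06 CPM and at 2.09, 2.08 and 2.06 CPM (-1.16 ± 0.26). Outside this class, Id1, an inhibitor of differentiation counted as fat-enriched, fell from 9.31, 10.6 and 7.34 CPM to 4.17, 5.39 and 4.92 CPM (-0.91 ± 0.18). Of the genes in both tissues, the cholinesterase Bche (-0.62), the kinase Irak2 (-0.64) and the salt-inducible kinase Sik1 (-0.74) fell with no overlap. Slc25a25, a mitochondrial ATP-magnesium carrier, fell by 1.997 on the log2 scale, but from 20.3, 162.8 and 59.9 CPM to 11.5, 14.5 and 34.9 CPM, and the groups overlap.

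Genes that rose were fewer, with a mean at 34 °C from 1.33 to 62.1 CPM. Gadd45b, a stress-responsive gene, had a mean of 20.99 ± 5.88 CPM at 22 °C (SD, n = 3), with no library above 27.5 CPM, and was at 37.9, 27.7 and 40.8 CPM at 34 °C (log2 fold change 0.76 ± 0.21). Pak1, a kinase of cytoskeletal and glucose transport control, went from 27.6, 26.9 and 30.7 CPM to 38.2, 41.5 and 48.4 CPM (0.59 ± 0.11), a change just above the fold limit that was called in 3 of the 6 fits without a library. The imprinted growth regulator Dlk1 was at 0.738, 0.402 and 0.511 CPM and rose to 2.62, 1.47 and 1.20 CPM (1.67 ± 0.40). The nerve growth factor receptor Ngfr rose from 1.48, 0.786 and 0.665 CPM to 2.39, 3.53 and 1.83 CPM (1.39 ± 0.38). The 22 °C values of Dlk1 lie under the filter limit, an average log2 CPM of 0, and those of Ngfr lie near it. Dlk1 thus passed the filter through the 34 °C libraries, which favours an increase, as can hold for Ngfr. The genes listed next were not set against this limit. Gpr137c (1.41), Muc4 (1.07), Pced1b (0.99), Atp8a2 (0.71), Tmem140 (0.66), Ctnna3 (0.59), 2610035D17Rik (0.60) and 8430408G22Rik (1.12) also rose with no overlap. The 15 muscle-enriched genes that rose against 5 that fell became 6 and 10 with library size as the only scaling, and 14 and 25 with all 6 controls, so that the balance of this class turned.

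The contractile and metabolic genes of the fibres were not called. None of 22 structural genes, 10 genes of fast 2B and 2X fibres, 14 of slow and 2A fibres, 17 of calcium cycling, 22 of the respiratory chain, 32 of fatty acid uptake and oxidation or 30 of glucose use that were tested met the rule, with list medians of 0.10, 0.10, 0.27, 0.07, 0.02, 0.02 and -0.02. Only 1.21% of all genes tested were called, so a list of this size without a call is near that share. Ckm, the creatine kinase of muscle, was at 24258, 27137 and 25873 CPM at 22 °C and at 28128, 34624 and 26789 CPM at 34 °C (0.21 ± 0.16). Acta1, skeletal actin, was at 0.29 ± 0.19 and Myh4, the 2B myosin, at 0.07 ± 0.24, both with their highest value in 34 °C library 2, the library with the least fat. All 14 genes of slow and 2A fibres had a log2 fold change above 0, from 0.06 to 0.73, and the groups of 2 of them, Casq2 and Myl3, did not overlap, against 9.34% of all genes tested (4.97% higher). Below 0 were 50.1% of all genes tested and 36.4% of the muscle-enriched class, to which 9 of these 14 belong. The direction of the list was not tested. Myh7, the slow myosin, varied widely between control libraries, at 203.8, 86.4 and 382.2 CPM, and its log2 fold change was 0.32 ± 0.48.

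Genes linked to heat production and fuel choice in muscle were also not called. Sln, the sarcolipin that uncouples the calcium pump, was at 0.829, 1.22 and 0.946 CPM at 22 °C and at 4.98, 1.37 and 0.914 CPM at 34 °C, where 34 °C library 1 alone stood apart, and its log2 fold change was 1.28 ± 0.60. Ucp3, the uncoupling protein of muscle, was at 156.5 to 240.5 CPM at 22 °C and 135.8 to 237.7 CPM at 34 °C (-0.15 ± 0.22). Pdk4, which turns muscle from glucose to fat, was at 560.6 to 1295 CPM and 727.7 to 974.7 CPM (0.11 ± 0.32). Cyp26b1, a retinoic acid hydroxylase, had a log2 fold change of 0.78 ± 0.61.

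**Figure D4:**
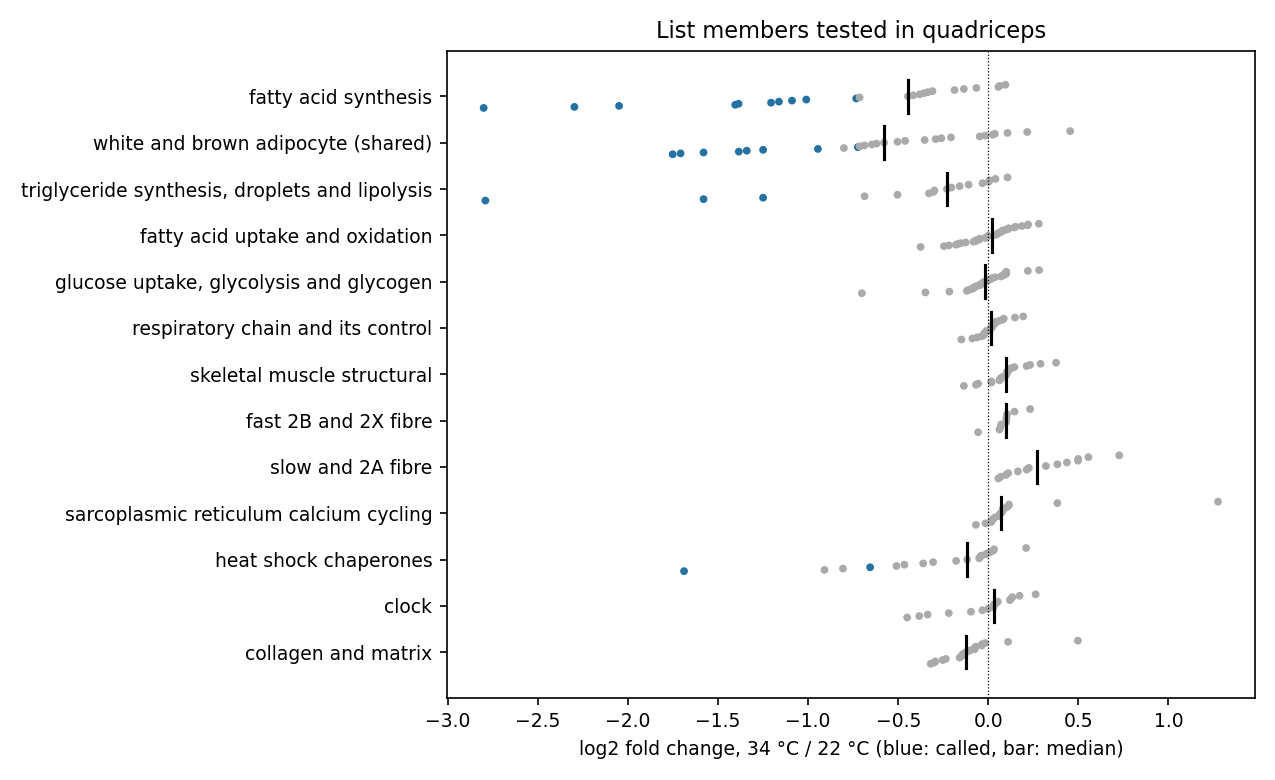
Log2 fold change at 34 °C (x axis) of each tested member of 13 gene lists (rows); blue points were called and black bars are list medians. Calls lie in the 3 lipid and adipocyte lists at the top and in the heat shock list, and the medians of the fibre, respiratory, oxidation and glucose lists lie between -0.02 and 0.27 with no call.

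Temperature-responsive genes gave few calls. Of 19 heat shock chaperones 2 fell at 34 °C and none rose, with a list median of -0.12, against 0.919% of all genes tested that fell. Hsp90aa1, the inducible cytosolic chaperone, was at 27.9, 49.98 and 48.8 CPM at 22 °C and at 27.6, 27.7 and 25.1 CPM at 34 °C (-0.66 ± 0.20), and the low 22 °C library 1 nearly met the warm ones. Hspa1b, a heat-inducible Hsp70, fell from 1.12, 5.32 and 3.09 CPM to 0.834, 1.35 and 0.774 CPM (-1.69 ± 0.53), with overlap. Rbm3, an RNA-binding protein induced by mild cold, fell from 56.1, 45.7 and 30.98 CPM to 27.1, 21.5 and 34.8 CPM (-0.67 ± 0.23), and Cirbp, its relative, was at -0.00 ± 0.19. The groups of Rbm3 overlap, and its log2 fold change was -0.35, not called, with the adipocyte covariate.

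Other lists gave few decreases, to be read against the 0.919% of all genes tested that fell and the 0.289% that rose. Of 17 tested genes of triglyceride synthesis, droplets and lipolysis 3 fell (Agpat2, Plin1 and Cidea, median -0.23), of 9 of thyroid hormone action 2 fell (Hr and Thrsp, median -0.03), of 9 of adrenergic signalling 1 fell (Sik1, median -0.18), and of 7 of polyamine metabolism 1 fell (Smox, median -0.28). Of the genes in the study's own thermogenic list 130 were tested and 3 fell (Ucp1, Cidea and Id1), and of its fatty acid metabolism list 205 were tested, 10 fell and 1 rose (Cyp1a1). Those 2 lists were chosen by the study and are not independent evidence of a direction, and their medians were -0.01 and -0.02. The 3 decreases among 130 thermogenic genes include Ucp1, which passed the filter through the 22 °C libraries.

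No gene of the retinoic acid (9 tested), myokine and adipokine (12), skin (1), red blood cell (3), clock (17), glucocorticoid and FOXO (22), interferon (13), immediate early (13), collagen (20), endothelial (11), fibroblast (10), macrophage (13), Schwann cell (6) or tendon (7) lists was called, and Myh3, the embryonic myosin, was the only called gene of 22 in the growth list (log2 fold change 0.68, overlapping groups). With 1.21% of all genes tested called, lists this short are near that share without any call.

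Quadriceps at 10 °C, compared with its own 22 °C controls, shares no library with the comparison at 34 °C. There 454 of 11841 genes were called (3.83%), 366 of them higher (3.09%) and 88 lower (0.743%). Of the 108 genes lower at 34 °C, 107 were tested at 10 °C, and 57 of those were called higher and none lower, against 316 called higher of the 11661 genes tested in both. The controls at 10 °C are the quadriceps libraries whose low level helped to define the fat-enriched class, and this favours a positive fold for the class. Of all 428 fat-enriched genes tested in both, 406 (94.9%) had a positive log2 fold change at 10 °C and 162 were called higher. The 50 that fell at 34 °C were all above 0 there, which is near the share of their class, and 44 of them were called higher. Scd1 rose at 10 °C by 3.23, Fasn by 3.17, Acly by 3.02 and Elovl6 by 4.58 on the log2 scale. The summed adipocyte markers were at 647.2, 783.9 and 258.7 CPM at 10 °C and at 321.6, 334.3 and 175.6 CPM in their controls, so that 2 of the 3 cold libraries lay above all controls. Relative to that sum, Scd1 was at 2.89 to 3.82 at 10 °C. Some other genes that fell at 34 °C were not called at 10 °C. Hr was at 0.02 ± 0.21 and Egln3 at 0.19 ± 0.16, and Tfrc at 0.53 was under the fold limit. Gadd45b and Pak1, which rose at 34 °C, fell at 10 °C by 0.90 and 0.60 on the log2 scale. Of the 34 genes higher at 34 °C, 29 were tested at 10 °C. Of those, 4 were called lower and none higher, and 9 had a positive log2 fold change. Of the 11661 genes tested in both, 60 were called lower at 10 °C. The test of the difference between the 2 effects passed an adjusted p of 0.05 for 57 of 11819 genes (0.482%).

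**Figure D5:**
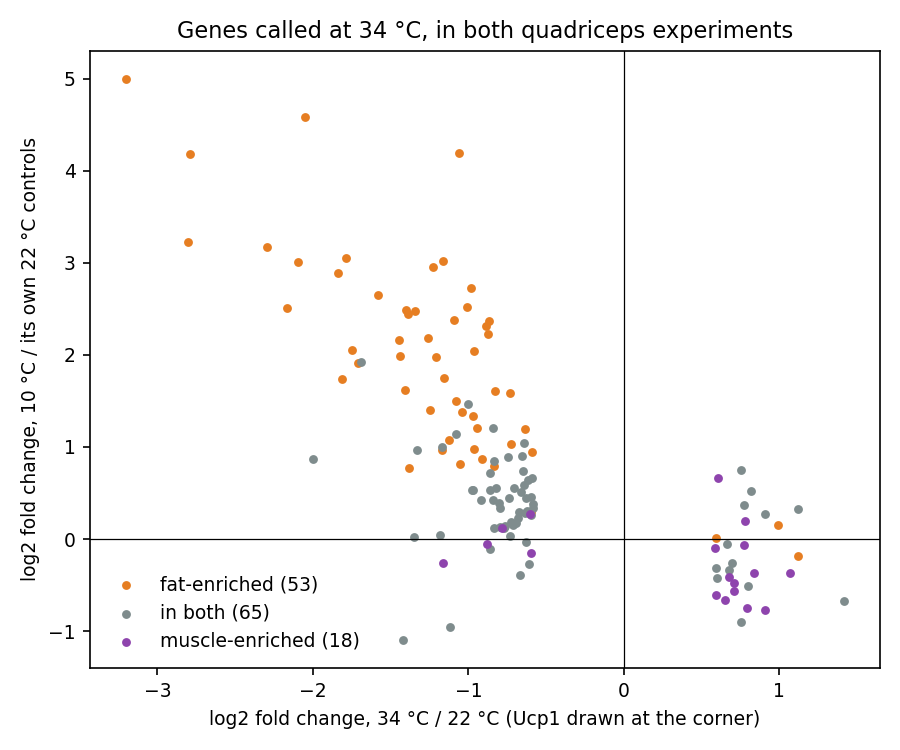
Log2 fold change at 34 °C (x axis) and at 10 °C (y axis), each against its own 22 °C libraries, for the 136 genes called at 34 °C that were tested at both temperatures. Fat-enriched genes (orange) that were lower at 34 °C are all above 0 at 10 °C, as were 94.9% of all fat-enriched genes, and Ucp1 is drawn at the corner.

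Brown fat of the same warm experiment gives the effect of 34 °C in a tissue made mainly of adipocytes. There 2392 of 12331 genes were called (19.4%), 887 of them lower (7.19%) and 1505 higher (12.2%). The 22 °C brown fat libraries of this comparison also set the classes, which favours a negative fold for the fat-enriched class, and of all 435 fat-enriched genes 164 were called lower and 24 higher. Of the 50 fat-enriched genes that fell in quadriceps, 32 were called lower in brown fat and 2, Klhdc7a and Tmem45b, higher. Fasn fell there by 2.75, Acly by 1.96, Acaca by 1.89 and Scd1 by 1.76 on the log2 scale, and the interaction test, which called 1088 of 12392 genes (8.78%), did not call Fasn (difference 0.43, adjusted p = 0.804 in edgeR's quasi-likelihood test), Acly (0.78, adjusted p = 0.386) or Scd1 (-1.07, adjusted p = 0.55). A p above the threshold does not show that the effects are equal. The adipocyte markers summed to 10872 to 12894 CPM in brown fat at 22 °C and to 10361 to 11116 CPM at 34 °C. Of the 53 genes in both tissues that fell in quadriceps, 49 were tested in brown fat. There 6 of them were called lower and 10 higher, with a median log2 fold change of 0.34. Of all 10485 genes in both that were tested there, 594 were called lower and 1162 higher. Hr fell in brown fat by 1.16 and Egln3 by 1.41 on the log2 scale. Tfrc, at 0.43 there, was not called in brown fat, and its difference between the tissues had an adjusted p of 0.0629.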

How the data were processed

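Poly(A) RNA of the 34 °C experiment was sequenced as stranded libraries with reads of 50 bases. The study's methods give the same kit for bone marrow and spinal cord, and another library kit and sequencer for all other tissues. By that wording the other kit covers the subcutaneous fat used as a reference, and the 10 °C quadriceps with its 22 °C controls. The same methods, however, place the sequencing of those quadriceps libraries at the site that ran the 34 °C experiment. Which kit they had is therefore not settled. The effect of the kit on the classes and on comparisons between the experiments was not tested. Per the study's methods the authors aligned reads to mm10 with STAR and counted reads per gene with HTSeq, and deposited raw counts without scaling. The submitters' processing notes name STAR 2.5.3a and HTSeq 0.6p1. Symbols were matched by name, and positions come from GENCODE on GRCm38. The labels do not tie the 22 °C quadriceps libraries to an experiment, and the controls were taken by column prefix.

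Counts were filtered at an average log2 CPM above 0, scaled with TMM and fitted with edgeR 4.0.16 (quasi-likelihood F-test, two-sided) in R 4.3.3. Interactions with 10 °C quadriceps and with brown fat were fitted on 12 libraries each. The script was tested on simulated counts. Alternatives were edgeR's exact test, DESeq2 1.42.0, other scalings, filters, controls and class limits, an adipocyte covariate, removal of fat-enriched genes, a replicate block and leaving out each library.

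The comparison, the gene lists and the tests were chosen with earlier results of these data known. Named genes are the 12 called genes with the smallest p and no overlap in each direction, the first 2 members and up to 4 called members of each list by size of change, 19 genes fixed by name and the 3 most counted genes of each class. Tkt, G6pdx, Cebpa, Srebf1, Mlxipl, Me1, Acacb, Fabp4, Cidec, Retn, Cfd, Slc25a25, Foxo6, Htra4, Col24a1, Cyp4b1, Ppp1r3d, Casq2, Myl3, Cyp1a1, Tmem45b, Rn45s and Pon1 were named after their values were seen. No table column of per-sample values was left unmapped. Reads carry no molecular identifiers, so the limit at a count of 0 covers counting error only. Gene lengths were not used, so levels are compared between libraries and not between genes.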

Additional observations from a re-analysis of the deposited data

Results flagged for a closer look

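For 9 of the 10 called genes of fatty acid synthesis the effect at 34 °C in quadriceps differed from that at 10 °C by the interaction test (edgeR's quasi-likelihood test, adjusted p under 0.05). The difference, 34 °C effect minus 10 °C effect on the log2 scale, was -4.18 for Acly, -3.46 for Acaca, -5.46 for Fasn, -6.03 for Scd1, -6.62 for Elovl6, -3.89 for Slc25a1, -3.53 for Thrsp, -3.82 for Tkt and -3.18 for Pnpla3, with adjusted p from 0.0028 (Acly and Pnpla3) to 0.0384 (Slc25a1). Over all genes the difference passed this threshold for 57 of 11819 (0.482%). The synthesis genes were picked by their calls at 34 °C, in libraries that also enter this test, which favours a negative difference. The larger part can lie on the 10 °C side: Acly was at -1.16 at 34 °C and 3.02 at 10 °C, and Acaca at -1.09 and 2.38. The mice of the 2 experiments came from different vendors, and the exposures lasted 4 weeks at 34 °C and 2 weeks at 10 °C. One wording in the study's methods makes the library kits differ too, while another places the sequencing of both quadriceps sets at the same site. The temperature, the duration, the set of animals and the library preparation therefore cannot be told apart here.

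Of the 24 named genes with the smallest p, 2 differed in effect between quadriceps and brown fat at 34 °C, a share near that of all genes, 1088 of 12392 (8.78%), so that it is no result about these genes as a group. Klhdc7a fell in quadriceps by 1.81 and rose in brown fat by 1.30, a difference of -3.13 (adjusted p = 0.00023, edgeR's quasi-likelihood test). The transcript 2610035D17Rik rose by 0.60 in quadriceps and by 2.12 in brown fat, a difference of -1.54 (adjusted p = 0.0081, the same test).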

How the results depend on the processing

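The count of called genes was 142, and it was 320 with all genes of more than 1 count, 252 with the adipocyte covariate (141 higher, 111 lower) and 90 without the fat-enriched genes. Leaving out 1 library gave 113 to 241, the highest without 22 °C library 3, and 42 of the 142 were called in all 6 such fits. With library size only, 18 were higher and 115 lower, against 34 and 108. Genes with an adjusted p under 0.05 numbered 18 by the exact test, 18 by DESeq2, 1 with the covariate and 0 to 2 without a library, 2 without 34 °C library 3. The fat-enriched calls (53) were 92 with more than 1 count, 30 with all 6 controls and 34 to 75 without a library, 34 without 22 °C library 1. The muscle-enriched calls (20) were 53 with more than 1 count, 39 with all 6 controls, 37 with the covariate, 8 with subcutaneous fat as reference and 14 to 31 without a library, 31 without 22 °C library 3. The log2 ratio of the adipocyte sum ran from -0.79 to -0.14 without a library and was -0.90 without Cfd. With library size only, 1659 genes differed from brown fat in place of 1088. Pon1, called higher in the comparison, was at -0.13 with all 6 controls. The cause of these shifts was not tested.

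The replicate block, with the column number as pair, gave 126 called genes (113 of the 142), 50 fat-enriched and 17 muscle-enriched. Same-numbered libraries deviated with correlations of 0.21, -0.30 and -0.39, so the numbers do not pair the samples. Of the 142 called genes, 82 kept the call without 22 °C library 1 and 104 with the covariate.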
